A study of Mus musculus with 16 samples.

Results

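Mouse embryonic fibroblasts (MEFs) that lost Ssu72 were compared with MEFs that kept it. The comparison uses the 6 MEF samples of a series of 16, which also holds hepatocytes from mice aged 6 weeks (3 Ad-Luc and 3 Ad-Cre samples) and embryonic stem (ES) cells (2 and 2), all of the C57BL/6 strain by their labels, and every row of its table of 23996 genes was read. The MEFs came from C57BL/6 embryos at embryonic day 13.5 and are the adherent cells that grew out of a trypsinised embryo, so they are a mixed population and not a sorted one. All 6 samples carried loxP sites around exon 1 of Ssu72, including the 3 labelled WT. The 3 WT samples were infected with Ad-Luc, an adenovirus that carries luciferase, and the 3 KO samples with Ad-Cre, an adenovirus that carries the Cre recombinase and removes the floxed exon. Per the study's methods, infection was done in low serum with a peptide that helps the virus enter cells. The methods speak of 3 independent samples and do not say whether these were separate embryos or separate dishes.

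Ssu72 is a phosphatase that acts on RNA polymerase II, on its C-terminal domain (CTD), the long repeat tail whose serine phosphates are placed and removed as the polymerase starts, elongates and terminates. In budding yeast it is a subunit of the cleavage and polyadenylation factor that makes the 3' ends of transcripts. Fibroblasts are the cells that build the extracellular matrix, and collagens and their processing enzymes are among their most abundant transcripts. The comparison asks which transcripts differ in level when such cells lack this phosphatase.

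The deposited table gives 1 FPKM value (mapped fragments scaled by transcript length and library size) for the Ad-Luc group and 1 for the Ad-Cre group, made by the authors with Cuffdiff from the pooled samples. No value per sample stands behind them here, so the spread between the 3 samples of a group and the read depth are unknown, no test was made, and a difference below is the difference of 2 pooled values. The log2 ratio is that of the Ad-Cre value over the Ad-Luc value. A gene was called measured when the mean of its values was at least 1 FPKM, and higher or lower when the ratio passed 1.5-fold. A gene under 1 FPKM in 1 group was therefore measured only through its value in the other group. Of the 23996 genes, 4570 were listed at 0 in both groups, 7210 had a mean under 1 FPKM, 2 were set aside (Rsad2 and Pold2, whose rows disagree with themselves) and 12214 were measured. Of the measured genes, 906 (7.42%) were higher in Ad-Cre MEFs, 1048 (8.58%) were lower, and 10260 lay within 1.5-fold. At 2-fold, 335 (2.74%) were higher and 377 (3.09%) lower, 5.83% in all. These percentages are the background for each count below. The gene in the middle of all measured genes had a log2 ratio of 0.03, and 90% of genes lay between -0.78 and 0.71. The summed FPKM was nearly equal, at 555727 in Ad-Luc and 556443 in Ad-Cre.

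Ssu72 itself, on chromosome 4 from 155704800 to 155733879 on the plus strand (mm10, GENCODE), stood at 22.7 FPKM in Ad-Luc and 3.69 FPKM in Ad-Cre MEFs, a log2 ratio of -2.62 that leaves 16.3% of the control level. Fragments from transcripts that lack only exon 1 still count toward that rest. No other CTD phosphatase of the list passed 1.5-fold. Rpap2, which removes serine-5 phosphate early in transcription, had the highest log2 ratio among them (0.38), and Ctdsp2, a small CTD phosphatase, went from 39.0 to 28.5 FPKM (-0.45). Around Ssu72 on chromosome 4, several expressed genes lay within the fold. Nadk, an NAD kinase, was at 59.3 and 57.6 FPKM, Cdk11b, a kinase linked to splicing, at 31.7 and 32.6 FPKM, and Mib2, a ubiquitin ligase, at 19.3 and 21.9 FPKM. Mmp23, a matrix metalloprotease gene whose near end lies 51416 bases from Ssu72, was far lower, at 46.6 FPKM in Ad-Luc and 10.5 FPKM in Ad-Cre (-2.15). On the other side, Atad3a, a mitochondrial ATPase gene, was at 26.0 and 39.3 FPKM (0.60), and Mxra8, a matrix remodelling gene, at 167 and 98.5 FPKM (-0.77).

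The label of embryonic fibroblast held against its markers. Col1a1, Col1a2, Col3a1, Postn, Pdgfra, Thy1, Vim and Fn1 were all expressed, with a summed level of 16195 FPKM in Ad-Luc and 9506 FPKM in Ad-Cre. The collagens, Postn and Pdgfra were lower, while Vim, the intermediate filament of mesenchymal cells, was at 1233 and 1498 FPKM and Thy1, a surface antigen of fibroblasts, at 390 and 306 FPKM. Hepatocyte markers summed to 1.44 and 0.701 FPKM and pluripotency markers to 0.718 and 0.805 FPKM. Macrophage markers were present in both groups, at 178 FPKM in Ad-Luc and 190 in Ad-Cre summed over 7 genes, most of it from Lyz2, a lysozyme (140 and 143 FPKM). Mesothelial markers were also present, summing to 32.4 and 23.1 FPKM over 5 genes, and within them Upk3b went from 9.52 to 1.19 FPKM and Krt19, a keratin, from 6.80 to 14.8 FPKM. In the longer list of mesothelial genes, 6 of 11 were lower and 2 higher (median -0.92). The part of these cells in the results below was not tested. Endothelial markers summed to 4.65 and 8.55 FPKM, most of it from Kdr (3.93 and 7.64 FPKM), with Pecam1 and Cdh5 below 1 FPKM. In the list of measured endothelial genes, Flt1 (-0.46), Eng (-0.22) and Egfl7 (0.13) stayed within the fold, and only Kdr (0.96) was higher. In bulk RNA, fewer cells of a type and less RNA per cell cannot be told apart.

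**Figure D1:**
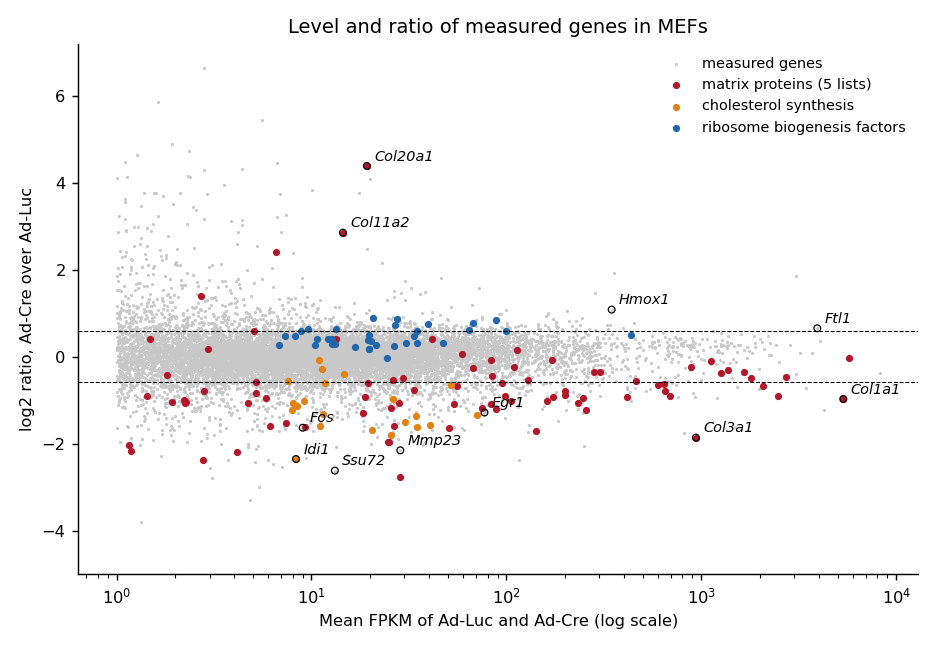
Mean FPKM of both groups (log axis) against the log2 ratio of Ad-Cre over Ad-Luc for each measured gene (grey), with matrix proteins in red, cholesterol synthesis in orange and ribosome biogenesis factors in blue. Dashed lines mark 1.5-fold, genes listed at 0 in a group and Ndufs5 are not drawn, and the named genes Ssu72 (-2.62), Col3a1 (-1.86) and Hmox1 (1.09) are circled.

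Many extracellular matrix genes were lower, and collagen I is among the most abundant transcripts of these cells. Of 11 measured fibrillar collagen genes, 9 were lower and 1 was higher, with a median log2 ratio of -0.89 against 0.03 for all measured genes. Col1a1 and Col1a2, the chains of collagen I, went from 7076 to 3612 FPKM (-0.97) and from 3222 to 1734 FPKM (-0.89). Col3a1, the chain of collagen III, went from 1468 to 405 FPKM (-1.86), a larger step than that of collagen I. Collagen V, which sets the thickness of collagen I fibrils, followed with Col5a1 at 545 and 288 FPKM (-0.92) and Col5a2 at 729 and 467 FPKM (-0.64), whereas Col5a3 stayed within the fold (73.6 and 61.8 FPKM, -0.25). The minor chains Col11a1 (39.8 to 13.2 FPKM, -1.59), Col24a1 (6.42 to 3.07 FPKM, -1.06), Col2a1 (6.65 to 3.74 FPKM, -0.83) and Col27a1 (6.21 to 4.12 FPKM, -0.59) were lower as well. Col11a2 was the only fibrillar collagen that was higher, at 3.51 FPKM in Ad-Luc and 25.5 FPKM in Ad-Cre (2.86).

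Among 19 other collagen genes, 10 were lower and 2 were higher (median -0.60). The chains of collagen VI, a beaded filament around cells, were all lower. Col6a1 was at 327 and 168 FPKM (-0.96), Col6a2 at 259 and 141 FPKM (-0.87) and Col6a3 at 123 and 53.9 FPKM (-1.19). Col12a1, a collagen on the surface of fibrils, was at 357 and 154 FPKM (-1.22), and Col8a2, a short chain network collagen, had the lowest ratio of the list (4.68 to 0.906 FPKM, -2.37). The basement membrane chains Col4a1 (340 and 267 FPKM, -0.35) and Col4a2 (313 and 247 FPKM, -0.34) stayed within the fold. The 2 genes that were higher, Col20a1 (1.75 to 36.7 FPKM, 4.39) and Col9a3 (2.07 to 11.1 FPKM, 2.42), were low in the control cells. Laminins and perlecan had a median of -0.36, with only Lama4 past the fold among 10 genes (107 to 61.7 FPKM, -0.80).

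The enzymes that hydroxylate, fold and cross-link collagen showed a smaller shift. Of 23 genes, 9 were lower and none higher (median -0.52). Lox, the lysyl oxidase that cross-links collagen and elastin, was at 1879 and 1152 FPKM (-0.71), and its relatives Loxl2 (283 to 121 FPKM, -1.22) and Loxl3 (81.3 to 26.6 FPKM, -1.61) differed more. P4ha1 (151 to 77.9 FPKM, -0.96), P4ha2 (232 to 123 FPKM, -0.92) and P4ha3 (18.6 to 7.26 FPKM, -1.36) encode the catalytic chains of prolyl 4-hydroxylase. Serpinh1, the collagen chaperone of the endoplasmic reticulum, stayed within the fold at 2162 and 1769 FPKM (-0.29).

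Elastic fibre genes and small leucine-rich proteoglycans had lower medians than all measured genes, whereas other proteoglycans were mixed. Of 17 elastic fibre and microfibril genes, 9 were lower and none higher (median -0.78). Eln, elastin itself, was at 6.82 and 1.503 FPKM (-2.18), Mfap4 at 218 and 66.2 FPKM (-1.72), Fbn1, fibrillin-1, at 252 and 147 FPKM (-0.78) and Ltbp2, a latent TGF-beta binding protein, at 228 and 120 FPKM (-0.92). Emilin1 (141 to 70.3 FPKM, -1.01) and Mfap2 (104 to 45.8 FPKM, -1.18) belong to the same fibres. Ltbp4 had the highest ratio of the list (11.5 and 15.3 FPKM, 0.42) and remained within the fold. Of 11 small leucine-rich proteoglycans, which coat collagen fibrils, 8 were lower and none higher (median -1.06). Dcn, decorin, was at 821 and 473 FPKM (-0.79), Lum, lumican, at 314 and 150 FPKM (-1.06), Ogn, osteoglycin, at 39.8 and 10.2 FPKM (-1.97) and Aspn, asporin, at 49.8 and 7.36 FPKM (-2.76). Podn (-1.62), Fmod (-1.59), Prelp (-1.53) and Podnl1 (-0.79) were the other members past the fold. Bgn, biglycan, the most abundant of the family, was at 3146 and 2297 FPKM (-0.45), and Omd (0.18) and Optc (0.41) were also within it. Of 9 syndecans and glypicans, 3 were lower and none higher (median -0.36). Of 10 genes of hyaluronan and chondroitin proteoglycans, 2 were lower and 1 higher (median 0.03). The higher gene, Hapln3 (0.447 and 4.66 FPKM, 3.38), was under 1 FPKM in Ad-Luc and was measured only through its Ad-Cre value. Vcan, versican, was at 192 and 127 FPKM (-0.60), and Cd44, the hyaluronan receptor, at 161 FPKM in both groups (0.01). Relative to the median gene or the ribosomal protein genes, the median of this list, so close to 0, turns negative.

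Of 26 matricellular and adhesive glycoproteins, 17 were lower and 2 higher (median -0.72). Sparc, a collagen-binding glycoprotein, was at 2549 and 1590 FPKM (-0.68), Postn, periostin, at 902 and 482 FPKM (-0.90), Thbs2, a thrombospondin, at 784 and 507 FPKM (-0.63) and Wisp1, a CCN family protein, at 128 and 68.3 FPKM (-0.90). Tnn, tenascin-N, was at 39.4 and 10.1 FPKM (-1.97), and Spon2 had the lowest ratio (1.93 to 0.429 FPKM, -2.17). Spp1, osteopontin, was the most abundant member and did not differ by the fold (5792 and 5700 FPKM, -0.02). Matn4 (1.49 to 3.95 FPKM, 1.41) was the highest.

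**Figure D2:**
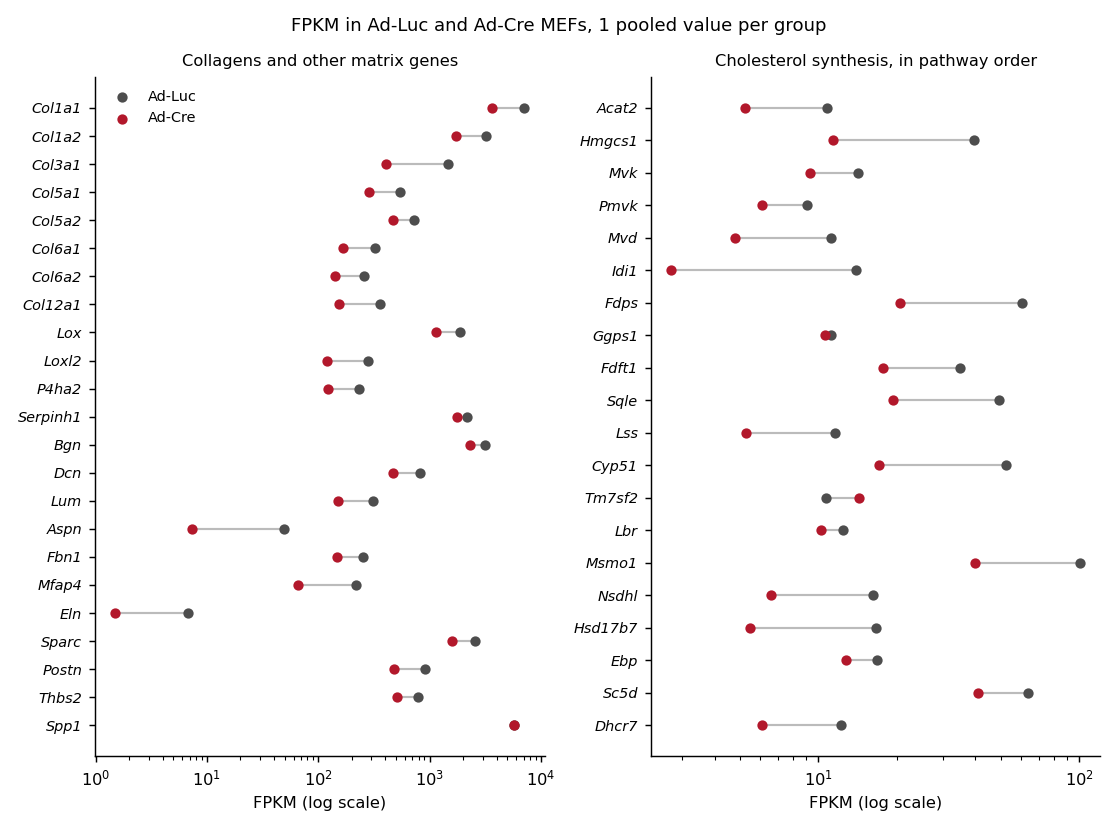
FPKM (log axis) in Ad-Luc MEFs (dark) and Ad-Cre MEFs (red) for matrix genes on the left and for genes of cholesterol synthesis in pathway order on the right. Each point is the authors' pooled value of a group, so there are no error bars. Spp1 coincides in both groups, Col3a1 goes from 1468 to 405, and Idi1 from 13.9 to 2.73.

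In the ADAMTS family, 11 of 14 genes were lower and none higher (median -1.06). Its secreted proteases process procollagens and cleave proteoglycans, whereas its ADAMTS-like members, named Adamtsl, are not proteases. Of the latter, Adamtsl4 (-2.46), Adamtsl1 (-2.02) and Adamtsl3 (-1.04) were lower, and Adamtsl5 (0.11) stayed within the fold. Adamts1 was at 67.3 and 38.7 FPKM (-0.80), Adamts2, the procollagen N-proteinase, at 22.1 and 10.3 FPKM (-1.11), Adamts7 at 24.1 and 14.2 FPKM (-0.76), Adamts4 at 22.7 and 10.7 FPKM (-1.09) and Adamtsl4 at 10.7 and 1.95 FPKM (-2.46). The matrix metalloproteases and their inhibitors were split. Mmp2, a gelatinase (657 to 381 FPKM, -0.79), and Mmp14, a membrane-bound collagenase (774 to 516 FPKM, -0.59), were lower, whereas Mmp10 (64.5 to 135 FPKM, 1.07) and Mmp9 (28.2 to 42.6 FPKM, 0.59) were higher, and Mmp3, stromelysin-1, stayed within the fold at 2568 and 3116 FPKM (0.28). In all, 5 of 18 were lower and 2 higher (median -0.24).

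Receptors and contractile proteins that tie fibroblasts to the matrix differed by gene. Of 19 integrin subunits, 7 were lower and 4 higher (median -0.34). Itga11, a collagen receptor of fibroblasts (28.2 to 8.58 FPKM, -1.71), Itga1 (6.57 to 3.02 FPKM, -1.12) and Itgb5 (238 to 151 FPKM, -0.66) were lower. Itga6 (5.02 to 9.39 FPKM, 0.90) and Itga3 (6.79 to 11.4 FPKM, 0.75), laminin receptors, were higher, as was Itga10 (0.985 to 2.69 FPKM, 1.45). Itga10 was under 1 FPKM in Ad-Luc and was measured only through its Ad-Cre value. Itgb1, the chain that most of these integrins share, was at 669 and 683 FPKM (0.03). Of 21 contractile genes of myofibroblasts, 9 were lower and none higher (median -0.41). Acta2, smooth muscle actin, was at 516 and 318 FPKM (-0.70), Cnn2, a calponin, at 179 and 119 FPKM (-0.59), Tpm2, a tropomyosin, at 98.3 and 51.4 FPKM (-0.94), Actg2 at 59.2 and 38.6 FPKM (-0.62) and Mylk, myosin light chain kinase, at 1.92 and 0.638 FPKM (-1.59). Tpm1 was at 683 and 752 FPKM (0.14). Of 26 fibroblast identity genes, which overlap the matrix lists, 10 were lower and none higher (median -0.37).

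Growth factors and their receptors showed lower values at several points of the PDGF, VEGF and HGF pathways, with 7 of 21 lower and 1 higher (median -0.46). The PDGF receptors Pdgfra (57.0 to 26.9 FPKM, -1.09) and Pdgfrb (159 to 92.1 FPKM, -0.79), the ligand Hgf (10.3 to 4.05 FPKM, -1.34), the ligand Angpt1 (7.58 to 2.38 FPKM, -1.67) and the co-receptor Nrp1 (42.3 to 23.4 FPKM, -0.85) were lower. Kdr, a VEGF receptor, was higher (3.93 to 7.64 FPKM, 0.96), and Vegfa stayed at 137 and 158 FPKM (0.21). Of 38 genes of TGF-beta and BMP signalling, 7 were lower and 3 higher (median -0.24). The ligand Tgfb3 (92.1 to 43.1 FPKM, -1.09) and the receptors Tgfbr2 (66.6 to 44.1 FPKM, -0.59) and Tgfbr3 (63.0 to 36.6 FPKM, -0.79) were lower, and Nog, a BMP antagonist, was higher (1.65 to 4.05 FPKM, 1.29). Among 27 Wnt pathway genes, 8 were lower and 4 higher (median -0.26). The secreted antagonists Dkk3 (92.1 to 28.9 FPKM, -1.67), Sfrp2 (44.3 to 19.2 FPKM, -1.20) and Sfrp1 (25.2 to 5.25 FPKM, -2.26) were lower, and so was the receptor Lrp5 (33.2 to 20.96 FPKM, -0.66). Axin2, a common Wnt target, was higher at a low level (1.58 to 3.52 FPKM, 1.16). Of 45 semaphorin, ephrin and Slit genes, which guide axons and cells, 13 were lower and 3 higher (median -0.33), with Slit3 at 211 and 112 FPKM (-0.92) and Epha2 at 49.5 and 89.5 FPKM (0.85).

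Immediate early genes, which answer serum and growth factors within minutes, had a median of 0.03 (-0.0036 relative to the median gene and -0.24 relative to the ribosomal protein genes), but a few of them stood well below the rest. Of 29 genes, 6 were lower and 1 higher. Egr1, a zinc finger transcription factor, was at 109 and 45.0 FPKM (-1.28), Fos, a subunit of AP-1, at 13.6 and 4.40 FPKM (-1.63), Egr2 at 2.97 and 0.851 FPKM (-1.80), Btg2, an antiproliferative factor, at 37.6 and 16.9 FPKM (-1.15) and Zfp36, which destabilises AU-rich transcripts, at 42.3 and 23.2 FPKM (-0.87). Other members of the same response did not follow them. Jun was at 89.5 and 101 FPKM (0.18), Junb at 172 and 176 FPKM (0.03), Ier3 at 229 and 271 FPKM (0.24) and Myc at 48.7 and 70.9 FPKM (0.54), and Dusp4, a phosphatase of MAP kinases, was higher (16.7 to 25.7 FPKM, 0.62). Egfr, the EGF receptor, was lower at 33.1 and 20.9 FPKM (-0.67), whereas its ligand Areg was higher (3.88 to 8.41 FPKM, 1.12). Elk1, a serum response cofactor (6.61 and 6.30 FPKM, -0.07), Ccne1, a cyclin (14.9 and 14.05 FPKM, -0.09), Rplp0 (1059 and 1011 FPKM, -0.07) and Hsp90ab1 (538 and 615 FPKM, 0.19) lay within the fold.

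Most enzymes of cholesterol synthesis were lower. Of 22 enzymes, 17 were lower and none higher (median -1.18), and the genes past the fold ran from the first to the last steps of the pathway. At its start, Hmgcs1, HMG-CoA synthase, was at 39.5 and 11.4 FPKM (-1.80). Idi1, which isomerises isopentenyl diphosphate, had the lowest ratio (13.9 to 2.73 FPKM, -2.35). Sqle, squalene epoxidase, was at 49.4 and 19.3 FPKM (-1.35), and Cyp51, lanosterol demethylase, at 52.5 and 17.1 FPKM (-1.62). Dhcr7 (12.2 to 6.06 FPKM, -1.01), Nsdhl (16.2 to 6.58 FPKM, -1.30) and Hsd17b7 (16.6 to 5.49 FPKM, -1.59) act later in the pathway. The exceptions were Pmvk (-0.56), Ebp (-0.39), Lbr (-0.28), Ggps1, which branches off to geranylgeranyl groups (11.2 and 10.6 FPKM, -0.07), and Tm7sf2, a sterol reductase (10.7 and 14.3 FPKM, 0.42).

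The regulators of this pathway and the uptake of lipoproteins are in a separate list, with 6 of 21 lower and none higher (median -0.41). Srebf2, the transcription factor SREBP-2 that drives sterol genes, was at 64.1 and 24.7 FPKM (-1.37), and Insig1, which holds SREBP in the endoplasmic reticulum when sterols are plentiful, at 32.5 and 8.05 FPKM (-2.01). Scap, the SREBP escort (49.8 and 34.7 FPKM, -0.52), and Srebf1 (42.6 and 29.0 FPKM, -0.55) stayed within the fold, and so did Abca1, which exports cholesterol (16.4 and 12.4 FPKM, -0.41). Of 17 genes of fatty acid synthesis, 7 were lower and none higher (median -0.52). Scd2, a stearoyl-CoA desaturase, was at 213 and 92.5 FPKM (-1.20), Fads2, the delta-6 desaturase, at 63.5 and 19.8 FPKM (-1.68), Fasn, fatty acid synthase, at 34.8 and 22.98 FPKM (-0.60) and Elovl6, an elongase, at 5.30 and 2.36 FPKM (-1.17).

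Promoter sequences from RefSeq (GRCm38.p6) were searched for named motifs in the 250 bases before each start, on both strands. The sterol regulatory element was spelled TCACNCCAC, the core of the site that SREBP-2 binds. It occurred in 346 of 32851 promoters (1.05%), and among the 17 enzymes of cholesterol synthesis with a promoter in the table it occurred only in that of Hmgcs1, the enzyme at the head of the pathway. Of 113 measured genes with this spelling, 13 were lower and 5 higher (median -0.03). The CCAAT box, spelled CCAAT, was in 16 of the 17 promoters and in 33.8% of all promoters. Among 9098 measured genes with a promoter, 3684 had it, and of these 283 were lower and 222 higher (median 0.03). The Hmgcs1 promoter is shown with the match in capitals, from chr13:119690101-119690350 on the plus strand, where the match starts 137 bases before the start of the gene.
Hmgcs1: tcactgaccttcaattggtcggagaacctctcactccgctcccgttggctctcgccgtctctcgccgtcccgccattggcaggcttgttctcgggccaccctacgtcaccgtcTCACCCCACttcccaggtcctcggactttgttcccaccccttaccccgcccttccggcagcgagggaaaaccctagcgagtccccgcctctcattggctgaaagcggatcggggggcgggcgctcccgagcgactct

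Chaperones of the endoplasmic reticulum, where collagen and other secreted proteins fold, were lower in 6 of 22 genes and higher in none (median -0.46). Calr, calreticulin, was at 1167 and 652 FPKM (-0.84), Hsp90b1, the chaperone Grp94, at 908 and 576 FPKM (-0.66), Pdia6 at 363 and 233 FPKM (-0.64) and Pdia4 at 254 and 142 FPKM (-0.83), the last pair being disulphide isomerases. Manf (65.2 to 36.2 FPKM, -0.85) and Creld2 (57.6 to 37.4 FPKM, -0.62) were the others. Hspa5, the chaperone BiP, was at 716 and 517 FPKM (-0.47) and Dnajb9, a co-chaperone, had the highest ratio (31.4 and 33.0 FPKM, 0.07). Several of these genes share a motif for the unfolded protein response, the endoplasmic reticulum stress element (ERSE), spelled CCAAT, then 9 bases of any kind, then CCACG. It contains a CCAAT box. It was found in 37 of 32851 promoters (0.113%) and in 8 of the 19 promoters of the list. Of the 8 genes with it, 4 were lower (median -0.55), and of the 11 without it, 1 was lower (median -0.46). Over all measured genes with the motif, 13 in number, 4 were lower and none higher (median -0.39), and 8 of these 13 are the members of the list. The promoters of the 4 lower genes are shown, and that of Hspa5, which stayed within the fold, for comparison, with ERSE matches in capitals. A match to the reverse strand reads CGTGG, the same spacing, then ATTGG. Calr lies at chr8:84846932-84847181 on the minus strand, Hsp90b1, with a match on either strand, at chr10:86705445-86705694 on the minus strand, Pdia6 at chr12:17266339-17266588, Creld2 at chr15:88819396-88819645 and Hspa5 at chr2:34771840-34772089, the last 3 on the plus strand.
Calr: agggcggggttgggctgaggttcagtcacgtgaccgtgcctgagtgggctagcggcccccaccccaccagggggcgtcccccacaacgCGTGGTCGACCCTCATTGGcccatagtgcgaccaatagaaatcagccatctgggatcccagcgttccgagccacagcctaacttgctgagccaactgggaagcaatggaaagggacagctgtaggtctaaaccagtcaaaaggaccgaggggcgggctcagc
Hsp90b1: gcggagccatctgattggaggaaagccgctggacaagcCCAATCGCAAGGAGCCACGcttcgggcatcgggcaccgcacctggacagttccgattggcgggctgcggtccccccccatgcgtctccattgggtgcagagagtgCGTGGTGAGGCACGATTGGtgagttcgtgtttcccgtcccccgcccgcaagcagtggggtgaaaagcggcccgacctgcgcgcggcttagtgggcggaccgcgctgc
Pdia6: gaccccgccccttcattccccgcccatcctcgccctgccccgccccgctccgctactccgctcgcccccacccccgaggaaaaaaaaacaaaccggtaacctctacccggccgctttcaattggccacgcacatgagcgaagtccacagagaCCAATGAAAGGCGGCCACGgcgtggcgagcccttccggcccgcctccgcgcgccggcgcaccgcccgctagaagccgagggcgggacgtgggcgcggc
Creld2: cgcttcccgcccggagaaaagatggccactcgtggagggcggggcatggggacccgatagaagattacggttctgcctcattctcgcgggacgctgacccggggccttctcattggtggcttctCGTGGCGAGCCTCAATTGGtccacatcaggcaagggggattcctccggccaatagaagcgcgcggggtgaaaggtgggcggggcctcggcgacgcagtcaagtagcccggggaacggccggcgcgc
Hspa5: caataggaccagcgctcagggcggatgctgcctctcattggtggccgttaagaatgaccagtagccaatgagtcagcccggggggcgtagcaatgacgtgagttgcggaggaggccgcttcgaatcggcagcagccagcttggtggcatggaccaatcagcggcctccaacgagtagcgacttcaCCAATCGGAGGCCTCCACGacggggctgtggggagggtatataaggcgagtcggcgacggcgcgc

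Genes of complement and the acute phase, made by fibroblasts as well as by liver, were lower in 12 of 19 cases and higher in none (median -1.06). Saa3, serum amyloid A3, was among the 5 most abundant transcripts of the control cells, at 4293 and 2624 FPKM (-0.71). Hp, haptoglobin, was at 159 and 71.3 FPKM (-1.16), Serping1, the C1 inhibitor, at 142 and 53.4 FPKM (-1.42), Serpina3g at 109 and 46.9 FPKM (-1.21), C3, the central complement component, at 71.0 and 36.3 FPKM (-0.97) and Serpina3n at 33.8 and 9.44 FPKM (-1.84). Ptx3, a pentraxin, stayed within the fold with the highest ratio (1032 and 1503 FPKM, 0.54). Of 37 chemokines and cytokines, 11 were lower and 4 higher (median -0.23). Cxcl5 (1581 to 821 FPKM, -0.95) and Cxcl1 (518 to 313 FPKM, -0.73), which attract neutrophils, and Cxcl12 (213 to 96.8 FPKM, -1.14), the ligand of Cxcr4, were lower, while Ccl2 stayed within the fold at 3461 and 2621 FPKM (-0.40). Ccl25, a chemokine of the thymus and gut, was the highest (2.41 to 32.7 FPKM, 3.76). The macrophage markers in these cultures summed to 178 and 190 FPKM, most of it from Lyz2. In the longer list of macrophage and blood cell genes, 2 of 14 were higher and none lower (median 0.25). All 14 ratios were positive. The part of these cells in these results was not tested.

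Genes that were higher by group had smaller ratios than the matrix and sterol genes. Of 35 ribosome biogenesis factors, 12 were higher and none lower (median 0.42), but relative to the median ribosomal protein gene 2 were higher and the median was 0.15. Fbl, the methyltransferase of box C/D snoRNPs, was at 63.3 and 114 FPKM (0.84), Nop56 at 79.9 and 120 FPKM (0.59), Nop58 at 49.5 and 85.0 FPKM (0.78), Ncl, nucleolin, at 50.6 and 77.4 FPKM (0.61) and Gar1, of box H/ACA snoRNPs, at 14.5 and 26.8 FPKM (0.89). Of 17 host genes of snoRNAs, 4 were higher and 1 lower (median 0.33), with Snhg1 at 123 and 224 FPKM (0.86). The row of the ribosomal RNA precursor, Rn45s, was lower (2238 to 730 FPKM, -1.62), with log2 ratios of 0.22 in hepatocytes and 0.06 in ES cells. The libraries came from total RNA. How much ribosomal RNA each library kept is unknown, so this value need not give the level of the precursor. Of 76 cytosolic ribosomal protein genes, 2 were higher and none lower (median 0.27), namely Rpl35 (910 to 1373 FPKM, 0.59) and Rpl26, which is listed at 0 in Ad-Luc and at 4.07 FPKM in Ad-Cre. The reason for the 0 of Rpl26 was not tested, and an exact 0 in this table may not mean that a transcript is absent.

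RNA processing complexes also lay above the median gene. Of 35 core spliceosome genes, 4 were higher and none lower (median 0.32), namely Snrpb (134 to 227 FPKM, 0.77), Snrpa (63.0 to 101 FPKM, 0.68), Snrpc (76.9 to 119 FPKM, 0.62) and Sf3b4 (56.9 to 90.4 FPKM, 0.67), and relative to the ribosomal protein genes none of the 35 was higher. Of 15 subunits and partners of the nuclear exosome, which degrades nuclear RNA, 3 were higher and none lower (median 0.36), with Exosc6 at 14.8 and 38.1 FPKM (1.37), Exosc1 at 11.5 and 18.2 FPKM (0.66) and Exosc9 at 16.3 and 24.7 FPKM (0.60), and 1 was higher relative to the ribosomal protein genes. Proteasome subunits had a median of 0.33 with 1 of 38 past the fold, Psmd8 at 178 and 278 FPKM (0.64). Relative to the ribosomal protein genes, none of the 38 was higher and 2 were lower (median 0.06). Mitochondrial ribosomal proteins had a median of 0.26 with 5 of 57 higher, such as Mrpl38 (29.3 to 53.7 FPKM, 0.87), and respiratory chain subunits a median of 0.26 with 1 of 75 past the fold, Ndufs5, which was near 0 in Ad-Luc. Relative to the median ribosomal protein gene, the medians of these mitochondrial lists become -0.01 and -0.0069, so their direction depends on the scaling.

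Stress and amino acid pathways held some of the clearest higher genes. Of 22 targets of NRF2, the regulator of the oxidative stress response, 4 were higher and none lower (median 0.35). Ftl1, ferritin light chain, was at 3050 and 4813 FPKM (0.66), Hmox1, heme oxygenase 1, at 222 and 471 FPKM (1.09), Slc7a11, the cystine transporter, at 7.58 and 13.8 FPKM (0.86) and Gclc, the enzyme that starts glutathione synthesis, at 7.19 and 13.3 FPKM (0.88). Of 25 genes of serine, one-carbon and nucleotide synthesis, 5 were higher and none lower (median 0.29). Phgdh, the first enzyme of serine synthesis, was at 133 and 278 FPKM (1.06), Psph, the last, at 31.0 and 60.4 FPKM (0.96), and Atic, of purine synthesis, at 33.8 and 56.6 FPKM (0.74). Relative to the ribosomal protein genes, 2 of the 25 were higher (median 0.02). Of 22 targets of the integrated stress response, 3 were higher and none lower (median 0.33), Slc7a11 among them, together with Cth (24.5 to 49.1 FPKM, 1.00), which makes cysteine, and the transporter Slc7a3 (17.3 to 32.2 FPKM, 0.90). Relative to the ribosomal protein genes, 3 of the 22 were higher and 1 lower (median 0.06). Atf4, the transcription factor of that response, stayed at 293 and 306 FPKM (0.06). Sqstm1, the autophagy receptor p62, was higher (332 to 574 FPKM, 0.79).

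On the deposited scale, the machinery that acts on the polymerase was within the fold. None of 13 RNA polymerase II subunits (median 0.29), 33 CTD kinases and elongation factors (0.13), 28 factors of cleavage, polyadenylation and termination (0.18) and 15 Integrator subunits (0.11) passed 1.5-fold in either direction, where 16% of all measured genes did. Among genes with a mean of 10 to 30 FPKM, nearer the level of these lists, 4.11% were higher and 6.49% lower. Relative to the median ribosomal protein gene, the medians of the last 3 lists turn to -0.13, -0.08 and -0.16, and 4 of the 33 CTD kinases and elongation factors are lower, against 1 relative to the median gene. Cell cycle genes were close to the middle on the deposited scale. Of 50 genes of the G1/S transition and replication, 1 was higher and none lower (median 0.14, or -0.13 relative to the ribosomal protein genes), the cyclin Ccnd1 at 44.9 and 71.7 FPKM (0.68). Of 46 genes of G2/M and mitosis, 3 were lower and none higher (median -0.12), Cenpa (8.36 to 5.36 FPKM, -0.64), Ccnb2 (9.16 to 6.01 FPKM, -0.61) and Kif20a (6.42 to 4.24 FPKM, -0.60). Relative to the ribosomal protein genes, 15 of the 46 were lower (median -0.39), and so were 5 of the 50 G1/S genes.

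**Figure D3:**
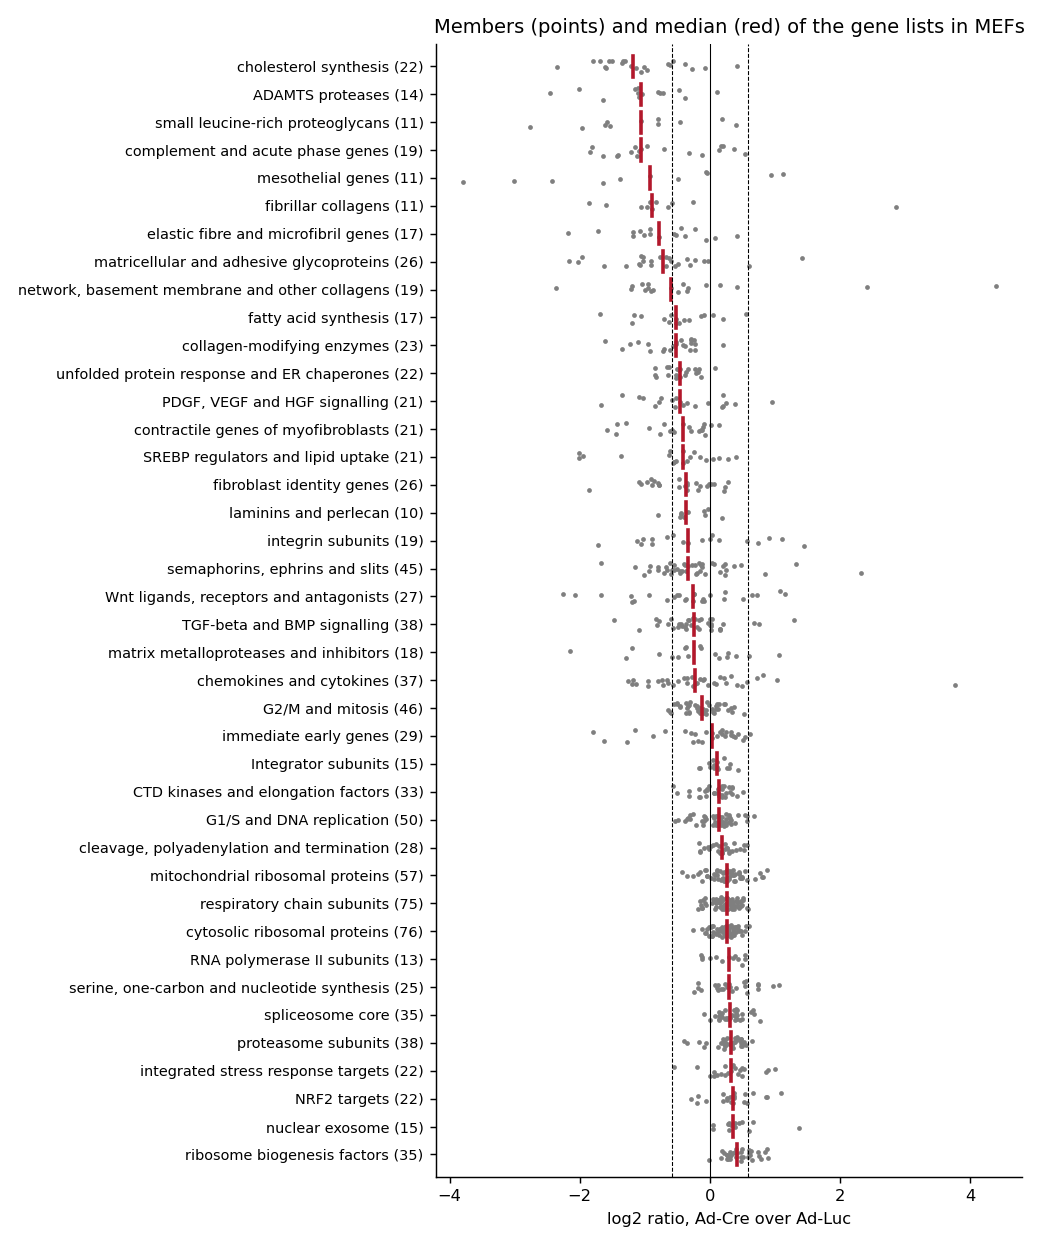
Each grey point is the log2 ratio of Ad-Cre over Ad-Luc for a measured member of a gene list, the red bar is the list's median, and the number of measured members stands in brackets. Dashed lines mark 1.5-fold, and Rpl26 and Ndufs5, at or near 0 in Ad-Luc, are not drawn. Cholesterol synthesis (-1.18) is at the top and ribosome biogenesis factors (0.42) at the bottom.

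The balance of higher and lower genes depends on what is taken as level. Per the study's methods, a control RNA mix (ERCC spike-in) was added to all samples, but no spike-in values were used here. Relative to the median cytosolic ribosomal protein gene, whose log2 ratio was 0.27, 458 genes were higher and 2260 lower, against 906 and 1048 with the deposited values. Relative to the median gene they were 803 and 1145. Apart from the hyaluronan and chondroitin proteoglycans, the matrix, sterol, chaperone and acute phase lists kept a negative median on each of these scales. The medians of the ribosome biogenesis, exosome, spliceosome and NRF2 lists shrank to 0.15, 0.09, 0.05 and 0.09 relative to the ribosomal protein genes, and their members past the fold went from 12 to 2, from 3 to 1, from 4 to 0 and from 4 to 3.

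Higher genes were more frequent close behind the 3' end of an active gene with the same orientation. Genes were placed on GENCODE (M21, GRCm38), genes that overlap another gene of at least 5 FPKM were left out, and the distance was taken from the start of each gene to the 3' end of the nearest upstream gene of at least 5 FPKM on its strand. At less than 2 kb, 77 of 421 measured genes (18.3%) were higher and 32 (7.60%) lower. The share of higher genes was 13.3% at 2 to 5 kb, 6.88% at 5 to 10 kb and 5.20% at 50 kb or more. Where the near upstream gene was on the other strand, 5.87% of 767 genes within 2 kb were higher, 6.85% at 2 to 5 kb, 11.6% at 5 to 10 kb and 6.14% at 50 kb or more, so that at 5 to 10 kb the other strand stood above the same strand. Where the near gene lay downstream on the same strand, 6.79% of 383 genes within 2 kb were higher. Among genes with a mean of at least 5 FPKM, 7.87% of 305 were higher and 9.18% lower within 2 kb of an upstream gene on the same strand. At 50 kb or more on that strand, 3.88% were higher and 8.15% lower. The higher share within 2 kb was 4.31% for the other strand and 5.32% for a downstream gene. On the other strand at 5 to 10 kb it was 7.58%.

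The upstream genes of these pairs did not move with their neighbours. Of the 77 higher genes within 2 kb, 76 had an upstream gene within 1.5-fold, 1 had a lower one and none a higher one, and the median log2 ratio of the upstream genes was 0.10. The median level of the 77 genes was 1.53 FPKM in Ad-Luc and 4.13 FPKM in Ad-Cre, against a median of 29.3 FPKM for their upstream genes. Since 30 of the 77 were under 1 FPKM in Ad-Luc and were measured only through their Ad-Cre value, the shares were also taken over genes of at least 1 FPKM in Ad-Luc. They were then 12.1% within 2 kb downstream of a gene on the same strand, 4.65% for the other strand, 5.56% for a downstream gene and 4.46% at 50 kb or more on the same strand. At 2 to 5 kb the same-strand share was 7.40% under this minimum, and on the other strand it was 9.36% at 5 to 10 kb. Among genes with a mean of 1 to 5 FPKM, 45.7% of 116 were higher within 2 kb on the same strand, and 28.6% of 84 when at least 1 FPKM in Ad-Luc was also required, against 5.64% of 195 on the other strand and 7.79% of 77 for a downstream gene. In that group the same-strand share at 2 to 5 kb went from 29.8% to 8.14%, and the other strand at 5 to 10 kb from 16 of 64 genes to 9 of 56.

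Individual pairs show the size of the step. Myo15, a myosin of hair cells, starts 585 bases after Drg2, a GTPase gene, and was at 0.0552 and 5.55 FPKM while Drg2 was at 27.8 and 31.4 FPKM. A3galt2, a galactosyltransferase, lies 2483 bases after Phc2, a Polycomb gene, and was at 0.249 and 10.9 FPKM while Phc2 was at 62.6 and 71.3 FPKM. Gzmm, granzyme M of lymphocytes, lies 622 bases after Cdc34, a ubiquitin-conjugating enzyme, and was at 0.271 and 5.36 FPKM with Cdc34 at 68.7 and 89.0 FPKM. All 3 were under 1 FPKM in the control cells. Lag3, an inhibitory receptor of lymphocytes (0.495 and 4.12 FPKM), lies 1976 bases after Ptms, Ager, the receptor for glycation end products (1.53 and 9.03 FPKM), 462 bases after Pbx2, and Dqx1 (0.955 and 12.8 FPKM) 36 bases after Aup1. The 3 collagen genes that were higher also lie within 5 kb of such an upstream gene. Of 10002 measured genes in the neighbour shares, 421 lay within 2 kb of one and 444 at 2 to 5 kb. How many of the other collagen genes lie so was not counted. Col9a3 lies 1954 bases after Ogfr, an opioid growth factor receptor gene at 50.9 and 57.8 FPKM. Col11a2 lies 1038 bases after Rxrb, a nuclear receptor gene at 17.0 and 16.6 FPKM, and Col20a1 4009 bases after Arfgap1, which, unlike the others, was itself lower at 45.6 and 25.7 FPKM. Col11a2 had a log2 ratio of 2.86 in MEFs, while hepatocytes gave 3.36 and ES cells 2.61, each from a table that was normalised separately.

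**Figure D4:**
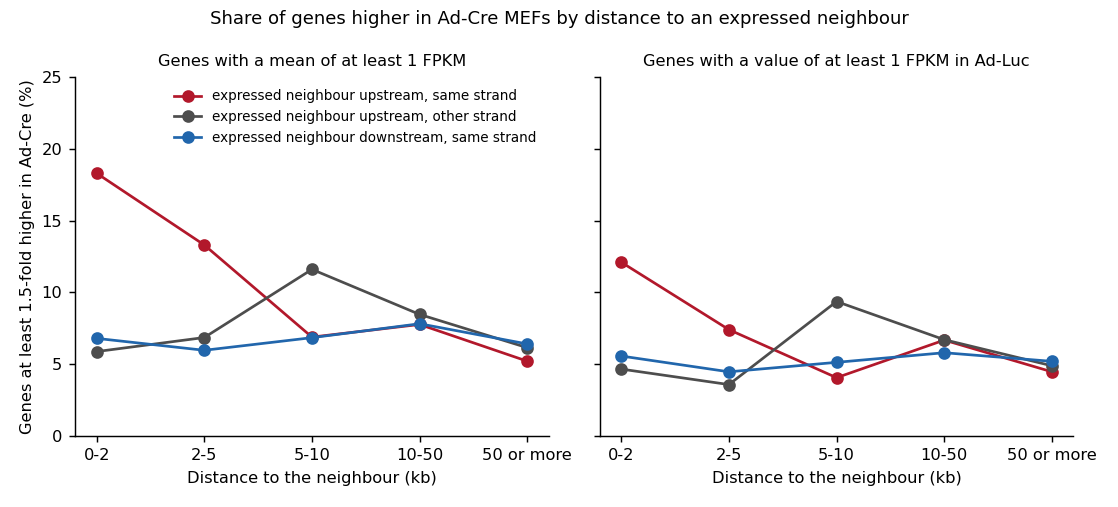
Share of genes at least 1.5-fold higher in Ad-Cre MEFs (vertical axis, percent) by distance to the nearest neighbour of at least 5 FPKM (horizontal axis, kb), for upstream neighbours on the same strand (red), upstream neighbours on the other strand (grey) and downstream neighbours on the same strand (blue). Within 2 kb the red line is at 18.3% over genes with a mean of at least 1 FPKM (left) and 12.1% over genes of at least 1 FPKM in Ad-Luc (right), while the others are between 4.65% and 6.79%.

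The ratio also followed the length of the gene. Of 585 genes shorter than 3 kb, 16.9% were higher and 8.21% lower (median 0.22), and of 249 genes of 300 kb or more, 2.81% were higher and 18.9% lower (median -0.20). The median passed through 0.12 at 3 to 10 kb, 0.07 at 10 to 30 kb, -0.01 at 30 to 100 kb and -0.12 at 100 to 300 kb. The order was the same among genes with a mean of at least 10 FPKM, where 11.1% of 343 short genes and 1.61% of 62 genes of 300 kb or more were higher, and 6.12% and 19.4% were lower. By level, genes at 1 to 3 FPKM were past the fold most often (16.5% higher and 12.6% lower). At 300 FPKM or more, 4.62% were higher and 12.3% lower.

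**Figure D5:**
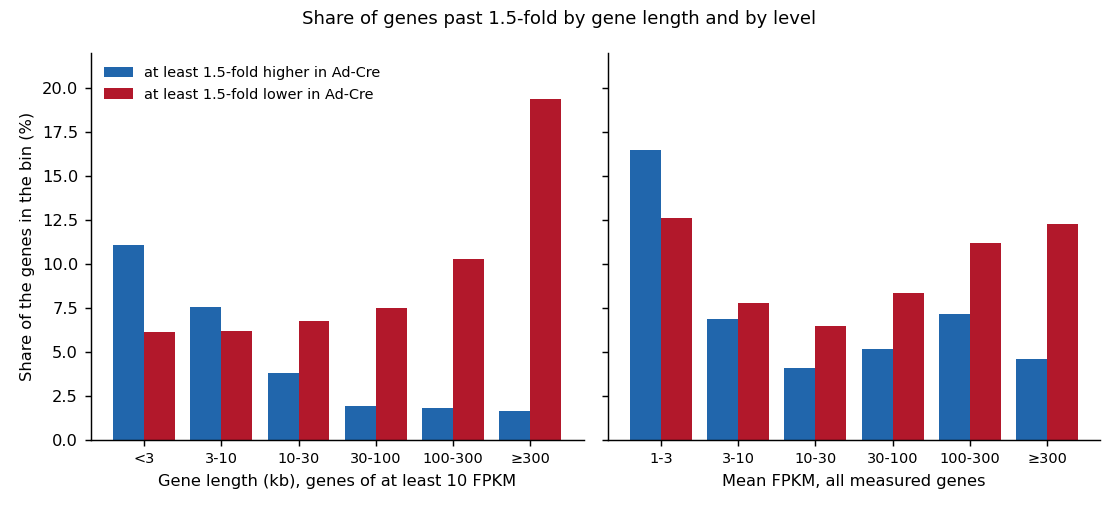
Share of genes at least 1.5-fold higher (blue) or lower (red) in Ad-Cre MEFs by gene length in kb among genes of at least 10 FPKM (left) and by mean FPKM among all measured genes (right). On the left the higher share goes from 11.1% to 1.61% and the lower share from 6.12% to 19.4% as genes become longer.

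The largest ratios by number belong to short non-coding genes and carry little information. Of 98 measured microRNA genes, 40.8% were higher and 39.8% lower, and of 51 snoRNA and scaRNA genes, 29.4% were higher and 31.4% lower, so they were spread in both directions. Of 67 measured genes listed at 0 in a single group, 38 in Ad-Luc and 29 in Ad-Cre, 64 were microRNA, snoRNA, scaRNA or snRNA genes, and the 25 largest ratios upward are all of this kind, as are 24 of the 25 downward. Mir5133, listed at 0 in Ad-Luc and at 1192 FPKM in Ad-Cre, and Mir762, at 1144 FPKM in Ad-Luc and listed at 0 in Ad-Cre, are examples. FPKM divides by a very short length there, and no fold is given. The RNA polymerase III transcripts Rmrp, the RNA of RNase MRP (111 and 38.01 FPKM, -1.54), and Rpph1, the RNA of RNase P (21.7 and 8.82 FPKM, -1.30), were lower. In hepatocytes and ES cells their log2 ratios were positive, at 1.96 and 2.41 for Rmrp and 0.40 and 0.97 for Rpph1. The nuclear transcripts Neat1 (484 and 448 FPKM, -0.11) and Malat1 (233 and 212 FPKM, -0.13) stayed within the fold. The imprinted transcript H19 was lower (350 to 142 FPKM, -1.30), as was its neighbour Igf2, a fetal growth factor (848 to 562 FPKM, -0.59).

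The other cell types of the series were read from their own tables with the same definition. Some lists had other values there, and some had the same direction as in MEFs. Cholesterol synthesis had a median of -0.08 in hepatocytes and -0.01 in ES cells, with 1 and 0 of 22 genes lower. The fibrillar collagens measured there, 7 in hepatocytes and 5 in ES cells, had medians of 0.33 and -0.14, at levels far below those of MEFs, with Col1a1 at 9.92 and 1.06 FPKM in the control groups. Endoplasmic reticulum chaperones had a median of -0.30 in hepatocytes and -0.04 in ES cells, ribosome biogenesis factors 0.29 and -0.03, and immediate early genes 0.42 and 0.06. In hepatocytes, complement and acute phase genes had a median of -0.52, with 5 of 13 lower. Integrated stress response targets had 0.40, with 7 of 22 higher, and serine, one-carbon and nucleotide synthesis 0.26, with 5 of 25 higher. In ES cells these medians were 0.115, from 3 genes, 0.02 and -0.03. In the ES table the control samples carry the tag FS in place of ES and were read as the ES Ad-Luc group. These tables were normalised separately, and the differences between cell types were not tested.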

How the data were processed

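RNA-seq was done on total RNA of 3 Ad-Luc and 3 Ad-Cre MEF samples, grouped by the labels. Reads were placed on mm10, with Cuffdiff 2.2.0 and TopHat2 2.0.13 among the tools in the submitters' processing notes, beside edgeR, DESeq and CASAVA, and the study's methods describe a stranded, paired-end library. The authors deposited 1 pooled FPKM value per gene and group, which is normalised to transcript length and library size, so counts, depth and the spread between samples are unknown, and the number of samples gives no error here. Columns of the authors' own comparison (fold change, p-value, q-value, status) were not used, except that 2 rows whose fold change disagreed with their own FPKM values by more than 0.01 on the log2 scale (Rsad2, Pold2) were set aside. No column of another series' sample was present.

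Log2 ratios of Ad-Cre over Ad-Luc were computed without a pseudocount with Python 3.11.15, pandas 2.3.3 and numpy 2.4.6, over genes with a mean of at least 1 FPKM, and 1.5-fold was the threshold. No test was made. The computation was tested on simulated data. Gene positions and lengths came from GENCODE M21 (GRCm38), in place of the deposited locus, which several genes can share. Of the genes, 23495 were placed, and 1863 measured genes that overlap a gene of at least 5 FPKM were left out of the neighbour shares. Promoters came from RefSeq, and 9098 measured genes matched. The genes named are the 25 largest ratios per direction at a mean of at least 5 FPKM, the 20 most abundant in Ad-Luc, the 4 most abundant members past the fold and the extremes of each list, all members of lists of up to 12, genes the study followed, and the neighbours of Ssu72. These were sets to draw from and not all are printed. Other named genes, among them the close pairs, were chosen after their values were seen. The members and all 79 gene lists were chosen with earlier results of these data known. Alternatives were other folds, minimum levels, pseudocounts, centrings and gene types. A few genes of these lists are counted but not reported here by name.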

Additional observations from a re-analysis of the deposited data

How the results depend on the processing

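No paired analysis was possible because the table holds 1 pooled value per group, and for the same reason neither leaving out a replicate nor a replicate block was run. Against 906 higher and 1048 lower genes, a fold of 2 gave 335 and 377, a minimum mean of 0.1 FPKM 2036 and 1627, of 5 FPKM 436 and 680, of 10 FPKM 306 and 500, no minimum 2858 and 2203, and centring on the median ribosomal protein gene 458 and 2260. With a pseudocount of 1 FPKM they were 641 and 775, and with protein-coding genes only 768 and 956. Chosen after seeing the data, leaving out small RNA genes and genes at 0 gave 846 and 992, and a minimum of 1 FPKM in Ad-Luc 670 and 1106. The share of higher genes within 2 kb downstream of a gene on the same strand, 18.3%, was 11.4% at a fold of 2 and 12.1% with a minimum of 1 FPKM in Ad-Luc, also chosen after seeing the data. Among genes with a mean of 1 to 5 FPKM it was 45.7%, and 28.6% with that minimum. At a minimum mean of 5 FPKM, the median of the small leucine-rich proteoglycans was -1.56, below that of cholesterol synthesis (-1.18). Of the 79 lists, 46 held more lower than higher members, and 31 to 60 did under the alternatives. The median of the immediate early genes turned to -0.0036 relative to the median gene. Relative to the ribosomal protein genes it was -0.24, and the medians turned to -0.010 for mitochondrial ribosomal proteins, -0.0069 for the respiratory chain, -0.13 for CTD kinases and elongation factors, -0.084 for cleavage and polyadenylation, -0.16 for Integrator and -0.13 for G1/S genes. The fewer genes under stricter minimums follow from fewer genes being counted, and the cause of the other shifts was not tested. A difference near 1.5-fold cannot be told from the spread between samples, which is unknown, and genes of 1 to 3 FPKM pass the fold most often.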

Other observations

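Several Hedgehog genes were lower in Ad-Cre MEFs and others were not. Of 14 Hedgehog and Notch genes, 6 were lower and 2 higher (median -0.33). The co-receptors Cdon (14.5 to 5.07 FPKM, -1.52), Gas1 (81.9 to 39.6 FPKM, -1.05) and Boc (25.05 to 14.4 FPKM, -0.80), the receptor Ptch1 (4.07 to 2.46 FPKM, -0.73) and the transcription factor Gli3 (9.38 to 6.05 FPKM, -0.63) were lower, while the signal transducer Smo (34.7 and 29.9 FPKM, -0.22) and the transcription factor Gli2 (3.76 and 3.24 FPKM, -0.22) lay within the fold and the Hedgehog-binding antagonist Hhip was higher (1.16 to 4.99 FPKM, 2.10). Of the Notch ligands, Jag1 was lower, at 24.7 and 16.1 FPKM (-0.61). Jag2, at 0.419 and 1.98 FPKM (2.24), was under 1 FPKM in Ad-Luc and was measured only through its Ad-Cre value. In the insulin-like growth factor axis, 5 of 16 genes were lower and 1 higher (median -0.13). The binding protein Igfbp5 was at 92.9 and 53.1 FPKM (-0.81), the ligand Igf1 at 7.97 and 4.84 FPKM (-0.72) and Pappa, a protease of binding proteins, at 28.8 and 13.9 FPKM (-1.05), whereas the adaptor Irs1 was at 7.92 and 12.2 FPKM (0.63).

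Interferon response genes were lower in 11 of 51 cases and higher in 1 (median -0.11). The antiviral membrane proteins Ifitm2 (727 to 459 FPKM, -0.66) and Ifitm1 (48.8 to 20.2 FPKM, -1.27), the nucleic acid sensor Zbp1 (102 to 54.0 FPKM, -0.92) and the receptor chains Ifnar1 (19.4 to 12.6 FPKM, -0.62) and Ifnar2 (76.9 to 47.0 FPKM, -0.71) were lower, and Ifitm3 stood at 2227 and 2301 FPKM (0.05). Genes of the Ifitm, Gbp, Oas and Tgtp families resemble each other, so their reads may be divided between copies. Aminoacyl-tRNA synthetases had a median of 0.27, with Rars at 109 and 209 FPKM (0.94) and Wars at 40.9 and 67.2 FPKM (0.71) as the 2 of 20 past the fold. Of 9 measured skeletal and cardiac muscle genes, 4 were higher and none lower (median 0.43). Acta1, skeletal actin, was at 15.3 and 42.4 FPKM (1.47), while the troponins Tnnc2 (0.358 and 2.10 FPKM, 2.55), Tnnt3 (0.913 and 2.18 FPKM, 1.25) and Tnnt2 (0.922 and 2.09 FPKM, 1.18) were under 1 FPKM in Ad-Luc and were measured only through their Ad-Cre value. Myod1 and Myog, regulators of muscle identity, were under 0.1 FPKM in both groups.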
